A study of Mus musculus with 16 samples.

Results

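The circadian clock genes were measured in the cerebral cortex of mice that carried or lacked the DNA glycosylase gene Neil1 and were irradiated or sham-treated. The set held 10 genes: Arntl (also called Bmal1), Per1, Per2, Per3, Ciart, Bhlhe40, Nr1d1, Nr1d2, Dbp and Tef. They were chosen by name, and every array probe whose RefSeq accession maps to one of these symbols was taken. That gave 19 probes of the 56605 on the array, and 10 of the 22911 genes that could be named. RNA came from 16 male mice, 1 Agilent single-colour array per mouse. The 4 groups held 4 mice each: wild-type sham, wild-type irradiated, Neil1-/- sham and Neil1-/- irradiated. Irradiated mice received whole-body gamma radiation at 6 Gy (0.74 Gy/min), and sham mice were not irradiated. All cortices were collected 20 h later. The Neil1-/- line had been backcrossed onto C57BL/6 and the wild types were littermates, with an age of 28 to 42 weeks in the labels. The protocol gives BrdU, a label of DNA synthesis, in 2 doses of 100 mg/kg, one preceding the exposure and one following it by 2 h, and names no group without it. The mice lived under equal 12 h spans of light and dark. The clock hour of exposure or collection is not in the labels, so the phase of the daily cycle at collection is unknown here.

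The mammalian clock is a feedback loop of transcription. ARNTL pairs with CLOCK and binds E-box elements, which drives the Per, Ciart, Bhlhe40, Nr1d1, Nr1d2, Dbp and Tef genes. PER proteins, CIART and BHLHE40 then inhibit ARNTL and CLOCK, while NR1D1 and NR1D2 (REV-ERB alpha and beta) repress Arntl through REV-ERB/ROR elements. DBP and TEF carry the rhythm to output genes through D-box elements. In the mouse, Arntl transcript peaks at about the opposite time of day to Dbp, Nr1d1 and the Per genes, and cortex runs such a clock under the timing of the suprachiasmatic nucleus.

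Exact matches to such elements were found in the promoter windows of 6 of the clock genes, 1 window of each of which is printed here. The windows are from RefSeq on build GRCm38.p6, run from 250 bases before to 50 bases after a transcript start, and are written 5′ to 3′ on the gene's strand. Capitals mark exact matches, on either strand, to 1 of 7 motifs: the E-box CACGTG, its variant CACGTT, the D-box TTATGTAA, the palindromic D-box TTACGTAA, the REV-ERB/ROR elements TAGGTCA and TGGGTCA, and the cAMP response element TGACGTCA. Per1 and Ciart are shown because their levels moved together between mice, Tef and Nr1d1 because they moved against each other, Arntl as the gene the REV-ERBs repress, and Per3 as the member whose window held D-boxes.
Per1, chr11:69098699-69098998, plus strand: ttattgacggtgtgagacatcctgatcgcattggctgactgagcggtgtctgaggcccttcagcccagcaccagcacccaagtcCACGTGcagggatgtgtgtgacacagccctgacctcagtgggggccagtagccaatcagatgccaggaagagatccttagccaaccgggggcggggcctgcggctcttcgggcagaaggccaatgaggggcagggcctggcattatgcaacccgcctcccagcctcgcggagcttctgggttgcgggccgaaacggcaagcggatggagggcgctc
Ciart, chr3:95882179-95882478, minus strand: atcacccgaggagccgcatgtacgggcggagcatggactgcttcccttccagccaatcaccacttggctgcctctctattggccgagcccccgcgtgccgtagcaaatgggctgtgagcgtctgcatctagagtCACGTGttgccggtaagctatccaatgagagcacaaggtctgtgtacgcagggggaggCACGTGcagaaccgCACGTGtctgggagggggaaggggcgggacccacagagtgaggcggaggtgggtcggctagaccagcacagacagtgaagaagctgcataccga
Tef, chr15:81802423-81802722, plus strand: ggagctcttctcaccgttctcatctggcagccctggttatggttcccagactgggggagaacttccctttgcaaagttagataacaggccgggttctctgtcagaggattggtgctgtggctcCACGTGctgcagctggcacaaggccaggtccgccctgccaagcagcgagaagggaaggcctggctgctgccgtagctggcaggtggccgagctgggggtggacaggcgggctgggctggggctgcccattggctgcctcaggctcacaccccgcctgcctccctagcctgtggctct
Nr1d1, chr11:98775328-98775627, minus strand: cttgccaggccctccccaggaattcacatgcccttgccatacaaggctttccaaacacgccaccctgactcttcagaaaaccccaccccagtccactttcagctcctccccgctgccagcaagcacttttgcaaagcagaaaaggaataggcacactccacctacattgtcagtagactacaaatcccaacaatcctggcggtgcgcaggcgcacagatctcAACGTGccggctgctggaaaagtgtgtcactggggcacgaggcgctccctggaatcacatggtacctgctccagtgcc
Per3, chr4:151044616-151044915, minus strand: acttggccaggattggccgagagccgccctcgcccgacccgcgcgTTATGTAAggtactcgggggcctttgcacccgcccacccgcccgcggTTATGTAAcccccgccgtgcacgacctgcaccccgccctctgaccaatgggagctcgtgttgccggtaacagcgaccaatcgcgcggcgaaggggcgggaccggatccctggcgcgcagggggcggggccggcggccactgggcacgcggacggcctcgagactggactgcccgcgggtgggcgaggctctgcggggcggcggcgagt
Arntl, chr7:113207261-113207560, plus strand: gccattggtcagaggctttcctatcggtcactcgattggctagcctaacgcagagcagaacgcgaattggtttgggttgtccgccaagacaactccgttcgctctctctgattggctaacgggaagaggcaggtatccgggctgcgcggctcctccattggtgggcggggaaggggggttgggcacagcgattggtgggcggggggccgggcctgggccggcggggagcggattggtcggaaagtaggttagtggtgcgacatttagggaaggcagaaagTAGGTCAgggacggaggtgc
The E-box occurred once in the Per1 window, at position -166 from the start, and 3 times in the Ciart window, at -116, -58 and -44. The Tef window held it at -127, and a further Tef window, chr15:81811164-81811463, held it at -138. The Nr1d1 window held the E-box variant at -28, the Per3 window held the D-box TTATGTAA at -205 and -158, and the Arntl window held TAGGTCA at position 31. No matches overlapped each other. The table had 11 windows for 8 of the 10 genes, and Per2 and Bhlhe40 had no entry. The Dbp and Nr1d2 windows, a further Per1 window (chr11:69099902-69100201) and a further Arntl window (chr7:113207215-113207514) held none of the 7 motifs. E-boxes were in 4 of the 11 windows, against 7.15% of all 32851 windows of the same length. The E-box variant was in 4.68% of all windows, the D-box in 0.938% and TAGGTCA in 2.61%. The other motifs matched none of the 11 windows: the palindromic D-box (0.119% of all windows), TGGGTCA (3.98%) and the cAMP response element (1.79%). A match describes these letters in this window and is not evidence of a bound site.

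Values below are log2 of Feature Extraction's processed signal, less the array's own 75th percentile, for the brightest kept probe of a gene unless another probe is named. A difference of 1 is a 2-fold difference, and levels of different probes cannot be set against each other. The 75th percentile itself fell from 2415 ± 274 intensity units in wild-type sham arrays to 2301 ± 235 in wild-type irradiated, 1778 ± 343 in knockout sham and 1333 ± 301 in knockout irradiated arrays (SD, n = 4 each). Between 62.4% and 72.4% of spots per array were well above background. All 19 clock probes were well above background on all 16 arrays, except 1 Per3 probe (A_66_P135046) on 15. One slide held all wild-type arrays and the other all knockout arrays, and on each slide row 1 held sham and row 2 irradiated samples. Genotype and slide, and treatment and slide row, therefore cannot be told apart. The 1 Neil1 probe read -3.65 ± 0.28 and -3.75 ± 0.40 in the wild-type groups and -2.38 ± 0.19 and -2.36 ± 0.23 in the groups labelled knockout (SD, n = 4, sham then irradiated). It was higher, not lower, in the labelled knockouts (limma adjusted p = 0.0246 in sham and 0.00725 after irradiation). The deleted part of Neil1 is not given in the labels, so this probe checks nothing, and each genotype direction below rests on the labels. In the same arrays the p53 targets Eda2r, Gdf15 and Cdkn1a rose with irradiation by 3.14, 1.90 and 1.32 (log2, averaged over genotypes), with limma adjusted p of 3.26e-07, 1.04e-06 and 1.66e-04. All 6 cortical excitatory neuron markers were well above background on 16 arrays, but so were 4 of 5 striatal markers, and the summed striatal level spanned 3.78 to 6.56 across arrays. Of 6 suprachiasmatic and hypothalamic markers, Avp, Vip, Oxt and Hcrt were well above background on 16 of 16 arrays, Lhx1 on 10 and Six6 on 0. Detection in bulk RNA does not show which tissue or cells gave a signal, and the source was not tested. In bulk tissue, fewer cells of a type and less RNA per cell cannot be told apart.

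No clock gene was called changed by irradiation or by genotype. A call meant a limma p, adjusted by Benjamini-Hochberg over all 17436 genes tested, under 0.05. Irradiation called 0 of 10 clock genes in wild type, against 0.0746% of all genes, 0 of 10 in the labelled knockout, against 0.12%, and 0 of 10 averaged over genotypes, against 0.304%. The genotype comparison called 0 of 10 in sham cortex, against 0.0516% of all genes, and 0 of 10 after irradiation, against 1.18%. For the difference of the irradiation response between genotypes, limma called 0 of 10 clock genes and 0 of 17436 genes (0%), of which 222 had an unadjusted p under 0.05. At its brightest probe, none of the 10 had an unadjusted p under 0.05 in any of the 6 comparisons. Further probes of Per2, Arntl and Tef did, as given below. Of all genes, 1.97% had one for irradiation in wild type, 4.63% in the labelled knockout and 5% averaged over genotypes, 7.69% for genotype in sham, 16.6% for genotype after irradiation and 1.27% for the difference of responses. At the brightest probe, the arrays of the groups compared overlapped for every clock gene in every pair of groups. Groups did not overlap for 1.97% of all genes for irradiation in wild type, 2.19% in the labelled knockout, 4.82% for genotype in sham and 8.73% for genotype after irradiation. The median difference of the 10 genes after irradiation was 0.09 in wild type and 0.06 in the labelled knockout, beside 0.01 and -0.00 over all genes. For genotype it was 0.02 in sham and -0.01 after irradiation, beside -0.02 and -0.03.

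**Figure D1:**
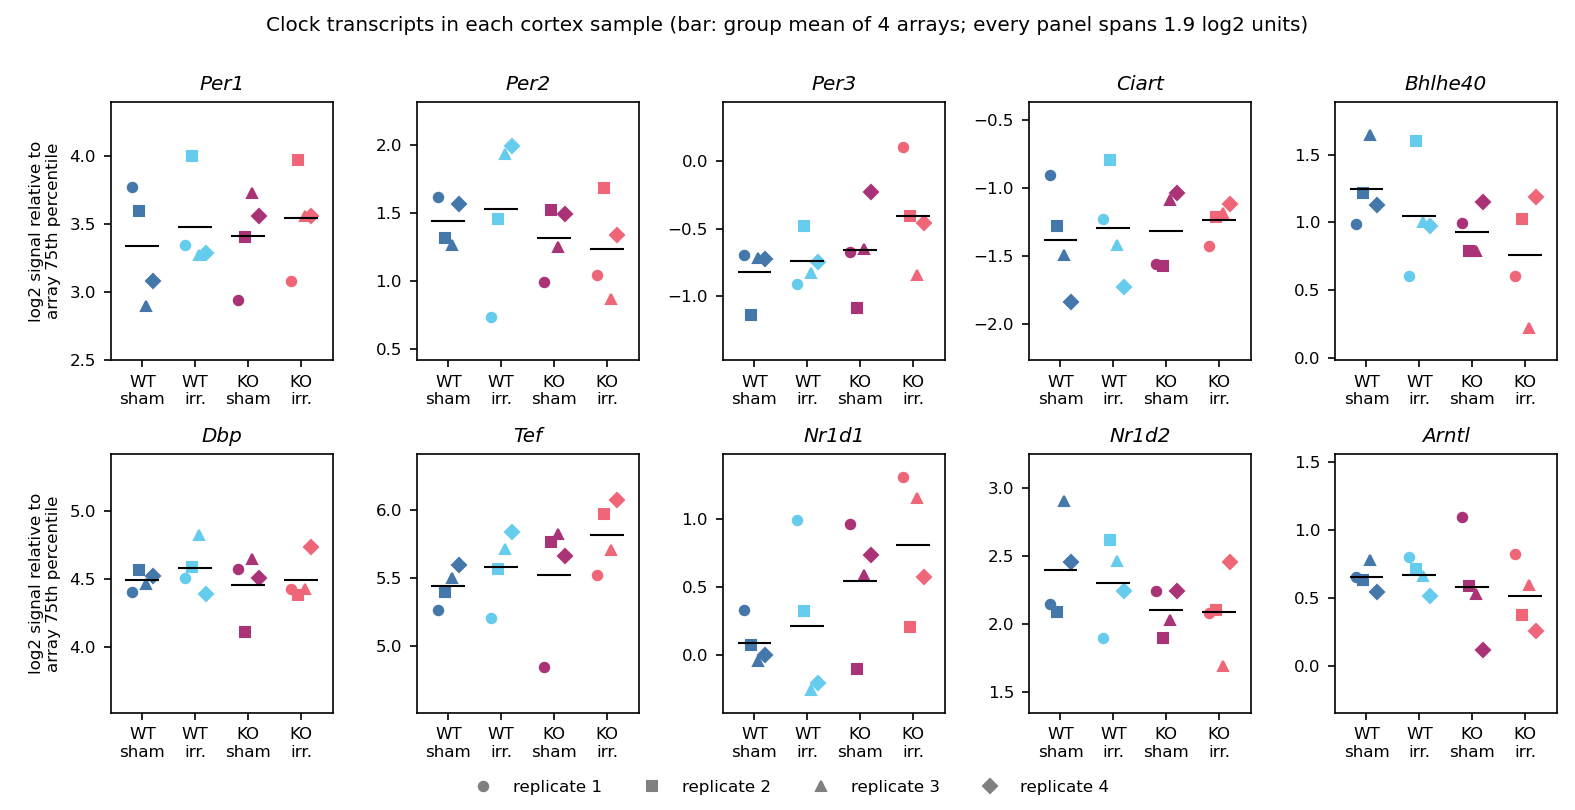
Level of each of the 10 clock genes in every array (y axis, log2 units above or below the array's 75th percentile; 1 symbol per mouse, symbol shape for replicate number, bar for the group mean of 4 arrays; every panel spans the same number of log2 units). The 4 groups overlapped in every panel, and Nr1d1 had the widest range over the 16 arrays, 1.57.

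The positive limb is represented by Arntl, the DNA-binding partner of CLOCK. Its brightest probe read 0.65, 0.63, 0.78 and 0.54 in wild-type sham replicates 1 to 4 and 0.80, 0.72, 0.66 and 0.51 in the irradiated wild types. In the labelled knockouts it read 1.10, 0.59, 0.53 and 0.12 in sham and 0.82, 0.38, 0.59 and 0.26 after irradiation. The wild-type values lay close together and the knockout values straddled them, with the highest and the lowest array of all 16 both in the knockout sham group. The irradiation difference averaged over genotypes was -0.02, with a 95% interval of -0.28 to 0.24. The genotype difference was -0.07 in sham (interval -0.44 to 0.30) and -0.16 after irradiation (-0.53 to 0.21). The further, dimmer Arntl probes A_66_P127371 and A_55_P2735445 differed from this. For genotype in sham they gave 0.34 (0.09 to 0.59) and 0.36 (0.04 to 0.69), with limma adjusted p of 0.373 and 0.492. For irradiation averaged over genotypes they gave 0.27 (0.09 to 0.44, limma adjusted p = 0.561) and 0.13 (-0.10 to 0.36).

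Among the repressors of the negative limb, Per1 encodes the PERIOD protein whose gene also answers quickly to cAMP and to glucocorticoid signals. Per1 read 3.77, 3.60, 2.89 and 3.08 in wild-type sham and 3.35, 4.0, 3.27 and 3.29 in wild-type irradiated arrays. It read 2.94, 3.40, 3.73 and 3.55 in knockout sham and 3.08, 3.97, 3.56 and 3.56 in knockout irradiated arrays. High and low arrays occurred in every group. The irradiation difference of Per1 averaged over genotypes was 0.14, with an interval of -0.23 to 0.51, or 0.851-fold to 1.42-fold. Its genotype differences were 0.07 both in sham and after irradiation.

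Per2, a PERIOD gene whose loss disrupts daily rhythm in mice, read 1.61, 1.31, 1.26 and 1.56 in wild-type sham and 0.74, 1.46, 1.93 and 1.99 in wild-type irradiated arrays. In knockout sham it read 0.99, 1.52, 1.25 and 1.49, and in knockout irradiated arrays 1.04, 1.68, 0.87 and 1.34. The wild-type irradiated group alone held both the lowest and the highest of all 16 values. Irradiation averaged over genotypes gave 0.01 (interval -0.37 to 0.38), and genotype after irradiation gave -0.30 (-0.83 to 0.24). The other, dimmer Per2 probe, A_52_P536869, differed. It gave 0.47 (0.14 to 0.81, limma adjusted p = 0.622) for the former and 0.43 (-0.04 to 0.90, limma adjusted p = 0.299) for the latter. Per3, the PERIOD family member least needed for rhythm in the mouse, ranged from -1.14 to 0.10. Its irradiation difference was 0.08 in wild type (-0.35 to 0.51) and 0.26 in the labelled knockout (-0.17 to 0.69), and its genotype difference after irradiation was 0.34 (-0.09 to 0.77).

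Ciart, also called Chrono, encodes a repressor that binds the ARNTL and CLOCK pair. It read -0.90, -1.28, -1.49 and -1.84 in wild-type sham and -1.23, -0.79, -1.42 and -1.73 in wild-type irradiated arrays. In the labelled knockouts it read -1.56, -1.57, -1.09 and -1.03 in sham and -1.43, -1.21, -1.18 and -1.11 after irradiation. The irradiated knockouts lay inside the range of the wild types. The irradiation difference was 0.08 in each genotype (interval in wild type -0.38 to 0.55, in the labelled knockout -0.38 to 0.54). Bhlhe40, also called Dec1, encodes a helix-loop-helix repressor that competes for E-boxes. It read 0.99, 1.22, 1.65 and 1.13 in wild-type sham, 0.61, 1.60, 1.0 and 0.97 in wild-type irradiated, 0.99, 0.79, 0.79 and 1.15 in knockout sham and 0.61, 1.02, 0.22 and 1.19 in knockout irradiated arrays. Group means went from 1.25 to 1.05, 0.93 and 0.76 in that order while the arrays overlapped. The irradiation difference averaged over genotypes was -0.19 (-0.53 to 0.16), and the genotype difference in sham was -0.31 (-0.81 to 0.18).

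The REV-ERB gene Nr1d1, which represses Arntl, had the largest genotype differences of the 10. It read 0.33, 0.07, -0.05 and -0.00 in wild-type sham and 0.99, 0.32, -0.26 and -0.21 in wild-type irradiated arrays. It read 0.96, -0.10, 0.59 and 0.73 in knockout sham and 1.31, 0.21, 1.15 and 0.57 in knockout irradiated arrays. Most knockout arrays were above most wild-type arrays, but replicate 2 of each knockout group and replicate 1 of the irradiated wild types crossed over. The genotype difference was 0.46 in sham (interval -0.19 to 1.10) and 0.60 after irradiation (-0.05 to 1.25, or 0.965-fold to 2.37-fold). The latter had an unadjusted p of 0.0682 and a limma adjusted p of 0.347. The wide interval came with a wide spread between mice (residual SD 0.46). Nr1d2, the second REV-ERB, read 2.15, 2.09, 2.91 and 2.45 in wild-type sham, 1.90, 2.62, 2.46 and 2.24 in wild-type irradiated, 2.25, 1.90, 2.03 and 2.24 in knockout sham and 2.08, 2.11, 1.69 and 2.46 in knockout irradiated arrays. Its genotype difference was -0.29 in sham (-0.73 to 0.14) and -0.22 after irradiation (-0.66 to 0.22), opposite in sign to that of Nr1d1.

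The output factor Dbp, whose transcript has one of the largest daily swings in many mouse tissues, was the steadiest clock gene in these arrays. It read 4.41, 4.57, 4.47 and 4.53 in wild-type sham and 4.51, 4.59, 4.83 and 4.39 in wild-type irradiated arrays. It read 4.57, 4.11, 4.65 and 4.51 in knockout sham and 4.43, 4.39, 4.43 and 4.74 in knockout irradiated arrays. All 16 mice lay within 1.64-fold of each other. Among the brightest probes Dbp therefore had the tightest bounds. The difference was 0.06 for irradiation averaged over genotypes (interval -0.13 to 0.26, or 0.912-fold to 1.20-fold). For genotype it was -0.03 in sham (-0.31 to 0.24) and -0.08 after irradiation (-0.36 to 0.19). The other Dbp probe, A_55_P2032079, gave 0.08 (-0.14 to 0.29), -0.12 (-0.42 to 0.18) and -0.21 (-0.51 to 0.09) in the same order. Tef, the related factor that binds the same D-box, ranged from 4.84 to 6.08. Its irradiation difference was 0.14 in wild type (-0.30 to 0.58) and 0.30 in the labelled knockout (-0.14 to 0.74), and averaged over genotypes 0.22 (-0.09 to 0.53, unadjusted p from limma 0.156).

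**Figure D2:**
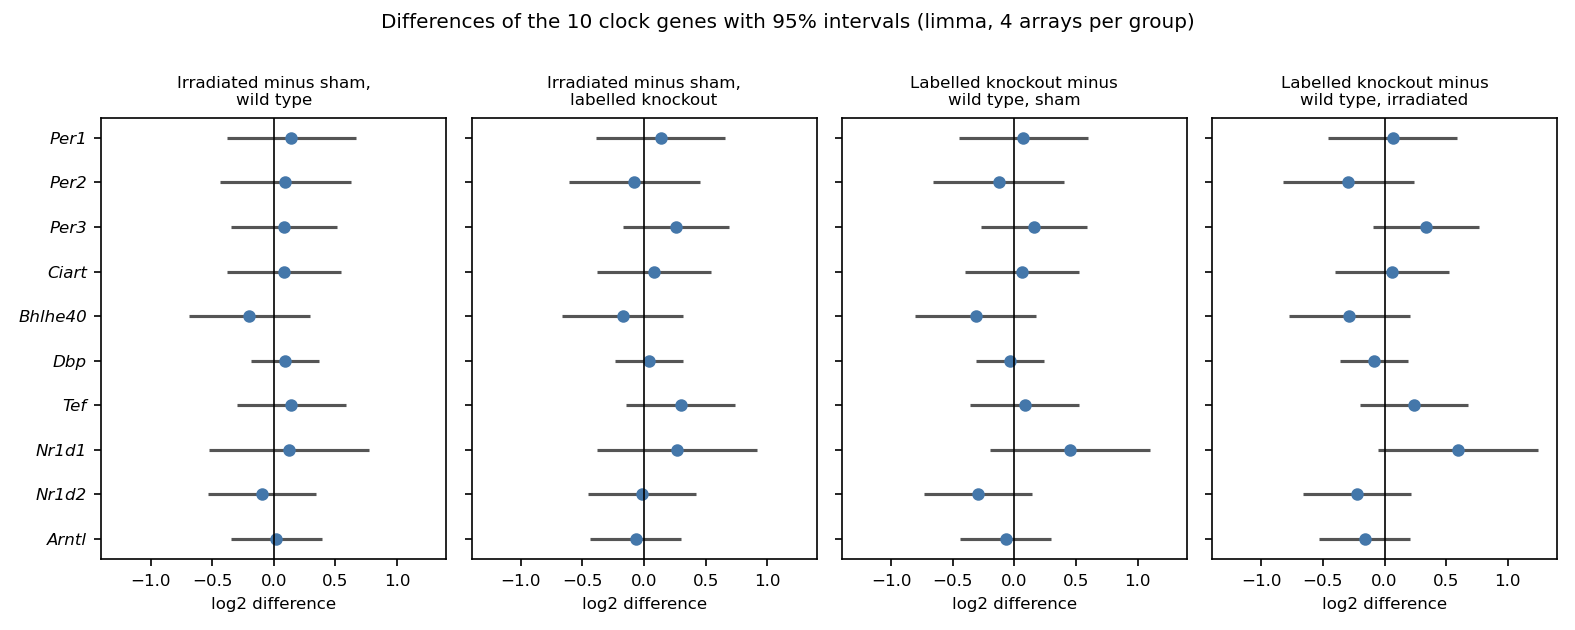
Differences of the 10 clock genes (x axis, log2; points are limma estimates and bars 95% intervals from 16 arrays) for irradiation in each genotype and for genotype in each treatment. Every interval, each from the brightest probe of the gene, spans 0, from the narrow ones of Dbp to that of Nr1d1 after irradiation, -0.05 to 1.25.

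At the level of single probes, genotype after irradiation was the 1 comparison with calls among the 19 clock probes: 2 of 19 were called over 39589 kept probes, against 4.67% of all probes. Both were further probes of genes whose brightest probe was not called. The Arntl probe A_66_P127371 read -2.02, -2.16, -2.24 and -2.16 in irradiated wild types and -1.39, -1.58, -1.38 and -1.87 in irradiated knockouts. The Tef probe A_52_P173309 read -2.85, -2.81, -2.86 and -2.65 in irradiated wild types and -2.34, -1.93, -1.92 and -2.01 in irradiated knockouts. The 2 groups did not overlap for either probe, nor for the uncalled Arntl probe A_55_P2735445. In this comparison 8.73% of all genes did not overlap, and the share over all probes was not computed. The differences of the 2 called probes were 0.59 ± 0.12 (SE, limma adjusted p = 0.0153) for Arntl and 0.74 ± 0.18 (limma adjusted p = 0.0364) for Tef. The brightest Arntl probe gave -0.16 and the brightest Tef probe 0.24, so probes of 1 gene disagreed in this fit. A further Arntl probe, A_55_P2735445, gave 0.53 (limma adjusted p = 0.061), and a further Tef probe, A_52_P485573, gave -0.01. Irradiation called 0 of 19 probes in wild type, against 0.0404% of all probes, in the labelled knockout, against 0.0455%, and averaged over genotypes, against 0.147%. For that average, unadjusted limma p was 0.00872 for Per2 A_52_P536869 (0.47), 0.00536 for Arntl A_66_P127371 (0.27) and 0.00766 for Tef A_52_P173309 (0.41). Their limma adjusted p was 0.622, 0.561 and 0.617, and every other clock probe had an unadjusted p above 0.05. The brightest probes of these genes gave 0.01, -0.02 and 0.22. The share of all probes with such an unadjusted p is not given here. Genotype in sham called 0 of 19, against 0.0455%, and the difference of responses called 0 of 19 and 0 of all 39589. In sham, Tef A_52_P173309 gave 0.52, Arntl A_66_P127371 0.34 and Arntl A_55_P2735445 0.36 (limma unadjusted p = 0.014, 0.0102 and 0.0313, adjusted 0.403, 0.373 and 0.492).

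Over the whole array, calls for genotype after irradiation differed in number and direction with probe brightness. Of the 13197 kept probes with the lowest signal when all were split into 3 equal parts, 805 were called higher and 28 lower in irradiated knockouts, with a median difference of 0.26. In the middle part 633 were higher and 91 lower (median 0.08), and in the brightest part 185 higher and 106 lower (median -0.03). Both called clock probes were in the middle part, and the knockout arrays were the dimmer ones. With the array's 75th percentile as a covariate, an alternative chosen after seeing the data, 0 of 19 clock probes and 0 of 17436 genes were called. The difference was then 0.79 ± 0.19 for the called Arntl probe and 0.09 ± 0.24 for the called Tef probe (SE, limma adjusted p = 0.21 and 0.886). With that covariate the brightest probes of both genes turned in sign, Arntl to 0.56 ± 0.20 and Tef to -0.60 ± 0.24 (SE, limma adjusted p = 0.22 and 0.241), and the third Arntl probe, A_55_P2735445, gave 0.87 ± 0.25 (limma adjusted p = 0.21). All 3 Arntl probes then lay above 0, while the brightest and the called Tef probe lay on opposite sides of 0. Probes of other clock genes also moved. Nr1d1 went from 0.60 to 1.32 ± 0.49, the brightest Per2 probe from -0.30 to -0.82 ± 0.42 and Dbp A_55_P2032079 from -0.21 to -0.60 ± 0.21 (SE). Their limma adjusted p was 0.224, 0.315 and 0.22. The brightest Ciart probe hardly moved, from 0.06 to 0.04. The 75th percentile ran from 1976 to 2510 in irradiated wild types and from 1075 to 1766 in irradiated knockouts, without overlap. The differences fitted with it as a covariate are therefore extrapolations. Without the 2 dimmest arrays, irradiated knockout replicates 3 and 4, 0 of 19 clock probes were called, beside 4 of 17436 genes. Leaving out wild-type irradiated replicate 3 also left 0, and leaving out wild-type sham replicate 2, wild-type irradiated replicate 2 or 4 or knockout irradiated replicate 2 or 3 left 1. For these alternative fits the whole-array counts are of genes, and those over all kept probes are not given here. Splice forms were not tested.

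**Figure D3:**
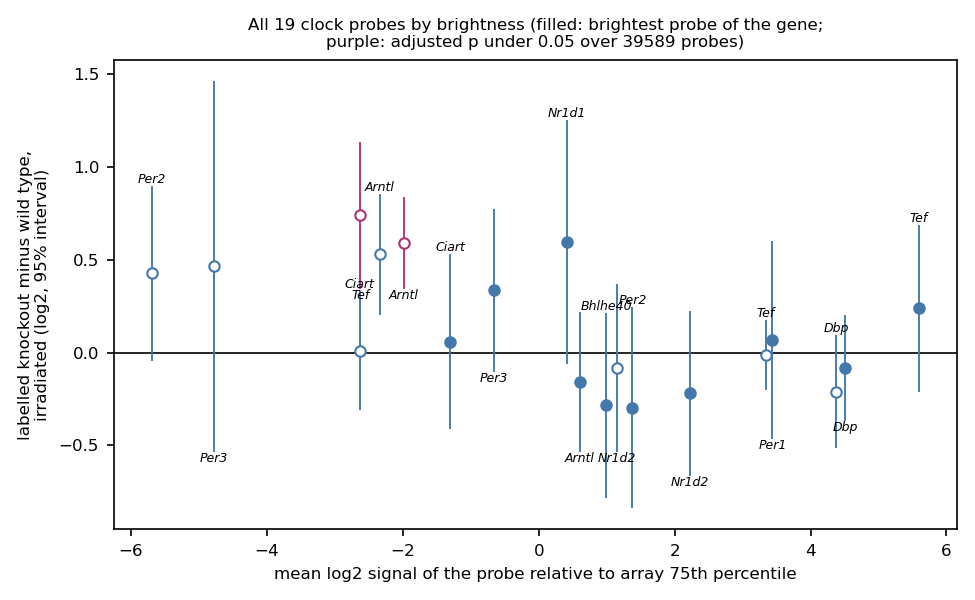
Genotype difference after irradiation (y axis, log2, labelled knockout minus wild type, bars 95% intervals) of all 19 clock probes against the the probe's mean level on the same scale as the genes above (x axis); filled points are the brightest probe of each gene and purple marks an adjusted p under 0.05. The 2 called probes, of Tef and Arntl, lie at 0.74 and 0.59 among the dimmer probes, while the brightest probes of both genes lie at 0.24 and -0.16.

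The same genes varied between mice of 1 group. After removal of the group means the residual SD was 0.46 for Nr1d1, 0.37 for Per2 and for Per1, 0.34 for Bhlhe40, 0.32 for Ciart, 0.30 for Tef, Nr1d2 and Per3, 0.25 for Arntl and 0.18 for Dbp. The median of all genes was 0.245. Nr1d1 stood at the 82.2 percentile of all genes and Dbp at the 26.7 percentile. Against genes of similar signal (within 0.5 on the log2 scale), which vary less when bright, Nr1d1 stood at the 93.6, Tef at the 93.4 and Per1 at the 93.0 percentile. Dbp stood at the 53.2 percentile there, so its spread was ordinary for its signal.

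These deviations from the group mean were compared for all 45 pairs of clock genes over the 16 arrays. With 100000 permutations within groups and Benjamini-Hochberg adjustment over the 45, 7 pairs had an adjusted p under 0.05 by Pearson's r and 2 of them also by Spearman's rho. In all, 24 pairs had r above 0 and 21 below. The firmest pair was Nr1d2 and Bhlhe40, 2 repressors from different arms of the loop. Their r was 0.87 (permutation p = 2e-04, adjusted 0.009) and rho 0.82 (permutation p = 7.8e-04, adjusted 0.0351). Without the 2 arrays farthest in Nr1d2 r was 0.83, and it was 0.85 in wild types, 0.91 in labelled knockouts, 0.85 in sham and 0.92 in irradiated mice. The other Nr1d2 probe gave r = 0.90 with Bhlhe40. The pair had an adjusted p under 0.05 under all 21 alternatives run for the pairs. Many genes tracked Nr1d2 as closely: Bhlhe40 ranked 221 of 17379 genes by r with Nr1d2, and Nr1d2 ranked 29 by r with Bhlhe40.

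The pair Per1 and Ciart, whose promoters with E-boxes are printed above, varied together with r = 0.77 (permutation p = 0.00205, adjusted 0.0307) and rho 0.79 (permutation p = 0.00201, adjusted 0.0452). Without the 2 arrays farthest in Per1 r was 0.70, and it was 0.84 in wild types, 0.69 in labelled knockouts, 0.80 in sham and 0.74 in irradiated mice. Ciart ranked 5 of 17379 genes by r with Per1, and Per1 ranked 2 by r with Ciart. The relation did not carry over to the other Ciart probe, A_66_P104483, for which r was 0.19 (permutation p = 0.539), and the deviations of the 2 Ciart probes correlated at 0.58. It had an adjusted p under 0.05 under 12 of 21 alternatives, with r from 0.69 to 0.86. The other 9 were those without wild-type sham replicate 1, any 1 of the wild-type irradiated replicates, knockout sham replicate 1 or 3, or knockout irradiated replicate 1 or 3, where the adjusted permutation p reached 0.0971. Among immediate early genes, which neurons induce within minutes of activity, the nearest to Per1 were Egr2 (r = 0.71, rho 0.63) and Egr4 (r = 0.68, rho 0.74), and the nearest to Ciart were Egr4 (r = 0.69, rho 0.71) and Junb (r = 0.67, rho 0.59). None of the 40 relations of Per1 and Ciart with immediate early and glucocorticoid-induced genes had an adjusted p under 0.05 (smallest 0.201 by permutation), and they were computed after the data were seen.

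**Figure D4:**
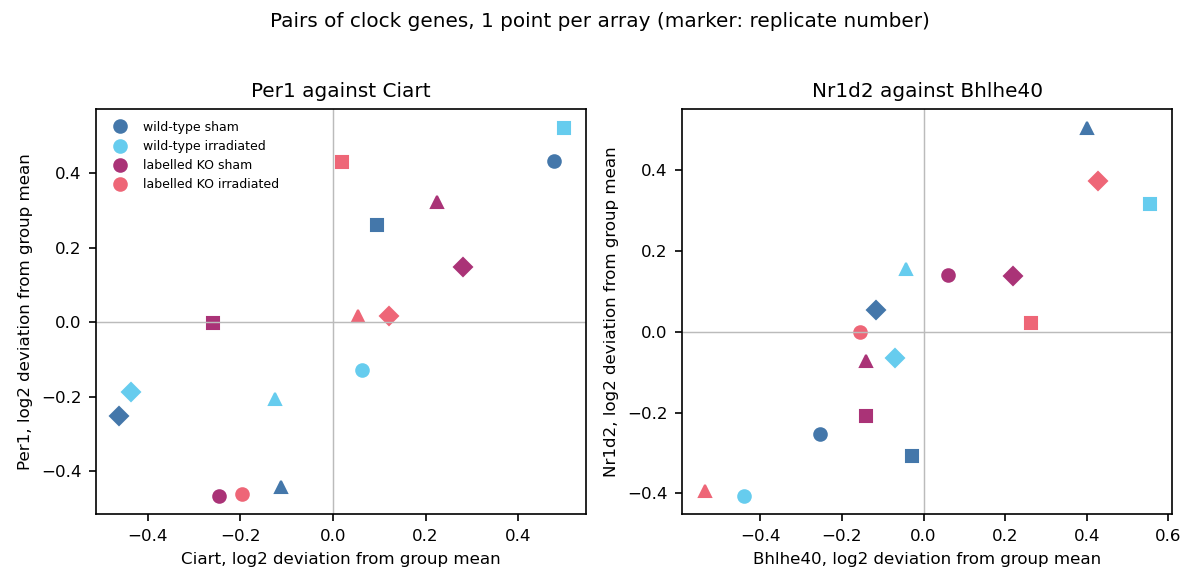
Deviations from the group mean (both axes, log2; 1 point per array, colour for group, symbol shape for replicate number) for Per1 against Ciart (r = 0.77) and Nr1d2 against Bhlhe40 (r = 0.87). Arrays of all 4 groups lie along both trends.

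The remaining 5 pairs joined Per2, Nr1d1, Tef and Arntl. Per2 and Nr1d1 went opposite ways, with r = -0.83 (permutation p = 0.00203, adjusted 0.0307) and rho -0.78 (adjusted 0.0553), and r was -0.86 in wild types, -0.84 in labelled knockouts, -0.41 in sham and -0.96 in irradiated mice. Nr1d1 and Tef gave r = -0.76 and rho -0.75, Arntl and Tef r = -0.79 and rho -0.76, Per2 and Tef r = 0.68 and rho 0.67, and Per2 and Arntl r = -0.57 and rho -0.72. These 4 pairs shared an adjusted permutation p of 0.0485 by r, and their adjusted p by rho lay between 0.0553 and 0.09. The replicate number is the slide column in every group, and in all 4 groups Tef was lowest in column 1 and Arntl lowest in column 4. With the replicate number as a block none of these 4 pairs had an adjusted permutation p under 0.05: r was -0.51 for Nr1d1 and Tef, -0.57 for Arntl and Tef, 0.52 for Per2 and Tef and -0.24 for Per2 and Arntl (adjusted 0.241, 0.433, 0.0677 and 0.784). Leaving out the 2 arrays farthest in the first gene gave -0.75, -0.70, -0.75, 0.58 and -0.61 for the 5 pairs in the order named. Within each genotype and each treatment r lay between -0.94 and -0.66 for Nr1d1 and Tef, between -0.90 and -0.68 for Arntl and Tef, between 0.59 and 0.87 for Per2 and Tef, and between -0.76 and -0.63 for Per2 and Arntl. All of these r rest on the brightest probes. Deviations of the brightest Tef probe correlated at 0.69 with those of A_52_P173309 and at -0.38 with those of A_52_P485573. The brightest Arntl probe correlated at 0.50 and 0.52 with the other Arntl probes, and the Per2 probes at 0.46 with each other. These pairs were not computed on the other probes. Per2 and Nr1d1 kept an adjusted p under 0.05 under 11 of 21 alternatives, and the 4 pairs under 2 to 6. Counted from the highest r of 17379 genes, Nr1d1 ranked 17196 by r with Per2, and Per2 ranked 16998 by r with Nr1d1. In the same count Tef ranked 16344 by r with Nr1d1 and 17161 by r with Arntl, and Arntl ranked 15201 by r with Per2. Tef ranked 1233 by r with Per2, and Per2 ranked 2454 by r with Tef. Many other genes therefore followed or opposed these clock genes at least as closely. Array brightness moved with some of the same genes: the deviation of the array's 75th percentile correlated at 0.83 with Arntl, -0.80 with Tef, 0.46 with Nr1d1 and -0.41 with Per2, but at -0.08 with Nr1d2, -0.14 with Bhlhe40, -0.32 with Per1 and -0.02 with Ciart. With the part linear in brightness removed, 3 pairs had an adjusted p under 0.05: Nr1d2 with Bhlhe40, Per1 with Ciart and Per2 with Nr1d1. Dbp, the output gene, was in none of the 7 pairs, and Arntl and Dbp, which cycle in opposite phase, gave r = -0.07.

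**Figure D5:**
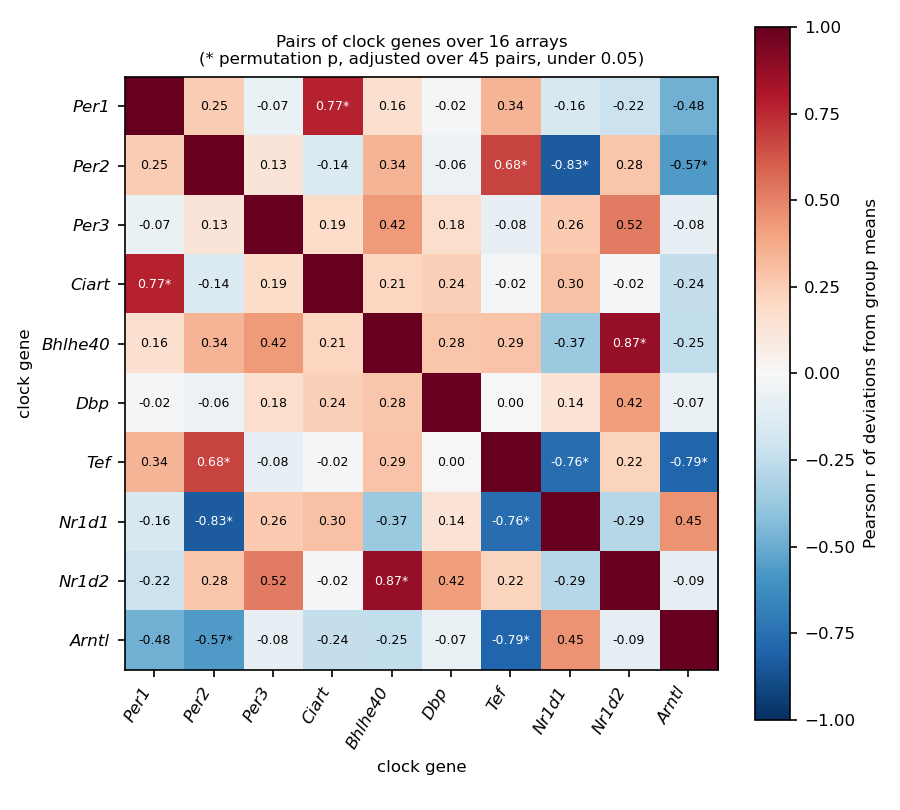
Pearson r of deviations from group means for all 45 pairs of clock genes (colour scale from -1 to 1; 16 arrays; a star marks a permutation p, adjusted over 45 pairs, under 0.05). The 7 starred pairs run from -0.83 for Per2 with Nr1d1 to 0.87 for Nr1d2 with Bhlhe40, and the Dbp column has none.

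The levels of other cell types' markers also varied between mice of 1 group. Over 100 relations of the 10 clock genes with 10 marker lists, computed after the data were seen, 4 had an adjusted permutation p under 0.05 by Pearson's r and 21 an unadjusted one. Tef followed the summed level of 4 astrocyte markers (r = 0.91, adjusted permutation p = 0.007, rho 0.85, adjusted 0.0602), and r was 0.85 without the 2 farthest arrays, 0.84 in wild types, 0.97 in labelled knockouts, 0.91 in sham and 0.94 in irradiated mice. The astrocyte sum itself correlated at -0.78 with array brightness, and r for Tef was 0.77 with brightness removed. This relation is that of the brightest Tef probe and was not computed for the other Tef probes. Deviations of the brightest probe correlated at -0.38 with those of A_52_P485573 and at 0.69 with those of A_52_P173309. Nr1d2 was lower where the sum of 4 hippocampal markers was higher (r = -0.85, adjusted permutation p = 0.018, rho -0.75, adjusted 0.065), with r of -0.78 without the 2 farthest arrays, -0.82 in wild types, -0.93 in labelled knockouts, -0.94 in sham and -0.77 in irradiated mice. Of those 4 markers Dsp was well above background on 4 arrays and Prox1, Zbtb20 and Wfs1 on 16. Signals were summed before the log2 was taken, so Wfs1, the brightest, set most of the hippocampal sum. Mean levels were 2.98 for Wfs1, 0.30 for Zbtb20, -1.52 for Prox1 and -7.21 for Dsp. The relation of Nr1d2 with each marker alone was not tested, nor was the tissue or cell type that gave these signals. The sum is therefore not a measure of hippocampal tissue in the samples. Bhlhe40 and Nr1d2 both followed the sum of 3 endothelial markers (r = 0.74 and 0.68, adjusted permutation p = 0.0193 and 0.027, rho 0.71 for each, adjusted 0.0602). For Bhlhe40 and Nr1d2 these r were 0.66 and 0.67 without the 2 farthest arrays, 0.84 and 0.91 in wild types, 0.82 and 0.77 in labelled knockouts, 0.77 and 0.65 in sham and 0.73 and 0.74 in irradiated mice. The summed hippocampal level ran from 2.56 to 4.12, 2.67 to 3.85, 2.63 to 3.89 and 2.34 to 4.03 over the 4 groups, and the endothelial level from 3.0 to 3.30, 2.63 to 2.96, 2.95 to 3.42 and 2.15 to 3.13, in the order wild-type sham and irradiated, knockout sham and irradiated. Their part in the correlation of Nr1d2 with Bhlhe40 was not tested.

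The genes whose deviations were most like those of Dbp were 4930512M02Rik (r = 0.83), Gp2 (0.82), Inmt (0.82), Prima1 (0.81) and Ptgr2 (0.81), among 17370 genes outside the set and over 16 arrays. For Arntl they were Taf3 (r = 0.94), Gm15760 (0.93), C2cd3 (0.92), Tmem234 (0.92) and Lrrc20 (0.92). The other clock genes were left out of this ranking.

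The wider clock pathway gave no calls in any of the 6 comparisons. Of 30 further genes in 4 lists, 29 were tested: partners of the positive limb, the Cry genes with kinases and ubiquitin ligases of the negative limb, the ROR and E4BP4 arm, and output genes. Limma called 0 of 29 in each comparison, against 0% to 1.18% of all genes, and 0 to 2 had an unadjusted p under 0.05, against 1.27% to 16.6% of all genes. Their median difference for irradiation averaged over genotypes was 0.02, beside 0.00 over all genes, with 18 above 0 and 11 below. Por, the electron donor of microsomal cytochrome P450 enzymes, gave -0.50 ± 0.16 (SE) for genotype after irradiation (limma adjusted p = 0.122), and Npas2, a paralogue of Clock, gave 0.55 ± 0.22 (limma adjusted p = 0.223). The output gene Hif3a, a hypoxia-inducible factor subunit, gave 0.65 ± 0.16 (SE) for irradiation averaged over genotypes (limma adjusted p = 0.168). Clock itself differed by -0.07 (interval -0.31 to 0.17) and Cry2, a partner of the PER proteins, by 0.02 (-0.20 to 0.24) with irradiation averaged over genotypes. Of 11 glucocorticoid-induced genes, a list that includes Per1, 2 rose with irradiation averaged over genotypes, against 0.304% of all genes called: Cdkn1a, also a p53 target, and the sulfotransferase Sult1a1 (0.69, limma adjusted p = 0.00462). None of the 10 immediate early genes was called in any comparison, where Fosb gave 0.53 and Egr4 0.44 for genotype in sham (limma adjusted p = 0.688 and 0.504).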

How the data were processed

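Cerebral cortex RNA of 16 mice was measured on 16 arrays, and samples were grouped by the genotype and treatment in the labels. The spot intensity is the deposited processed signal, which per the file headers Agilent Feature Extraction had corrected for background. The deposited value table is a score per probe: each column has an SD of 1, how the authors made it is otherwise unstated here, and it served as an alternative. Here control spots and outlier-marked spots were left out, log2 intensity minus each array's 75th percentile was taken, and probes well above background on at least 4 arrays were kept. Genes were named through RefSeq accessions on GRCm38.p6 (32994 of 35886 probes with an accession) and read from the brightest kept probe. limma 3.58.1 in R 4.3.3 fitted 4 group means to all 16 arrays with 12 residual degrees of freedom, two-sided, with Benjamini-Hochberg adjustment. The number of arrays limits the precision. On simulated data for irradiation in wild type over 17436 genes, 22%, 64% and 88% of genes changed by 0.5, 1 and 2 on the log2 scale were recovered. Normexp used the median spot signal. Alternatives covered background, scaling, filters, probe choice, weights, variance, the replicate block, the deposited table and each array left out. Named genes were the 10 members, Neil1, the called or lowest-p genes of each list and the 5 genes most like Dbp and Arntl. The members and lists were chosen with earlier results of these data known. Replicate numbers match the slide column and do not pair mice: of 24 same-number pairs of groups 11 correlated above 0.1 (r from -0.60 to 0.52).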

Additional observations from a re-analysis of the deposited data

Results flagged for a closer look

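Each of the 19 clock probes was examined in each group of 4 arrays for 1 array whose gap to its nearest neighbour took up most of the group's range. Of 76 such sets 7 had one, and chance alone gives about 1 in 20. Per1 in wild-type irradiated replicate 2 was high at 4.0, and that array was also the high one for the Ciart probe A_66_P104483, at -2.14. The same Ciart probe was low in knockout sham replicate 2, at -2.94. Dbp was high in knockout irradiated replicate 4 at 4.74, and its other probe, A_55_P2032079, was low in wild-type sham replicate 1 at 4.26. Per3 was low in wild-type sham replicate 2 at -1.14, and Tef was low in knockout sham replicate 1 at 4.84.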

How the results depend on the processing

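Of 1960 differences of clock genes under alternatives, 1 was called: with the probe of smallest residual SD, Arntl for genotype after irradiation turned to 0.59 (limma adjusted p = 0.0138), so 1 clock gene was called there, beside 565 of 17436 genes. The smallest adjusted p of the others was 0.111. Median scaling moved the median of all genes for genotype after irradiation from -0.03 to -0.23. In 159 of the 1960 the sign turned, and 24 moved by a residual SD or more. Clock probes called for genotype after irradiation, 2 here, were 5 with normexp background correction, 0 with quantile normalization, median scaling, z-score normalization, array brightness as a covariate or without the 2 dimmest arrays, and 0 to 3 with single arrays left out. Of all 17436 genes these settings called 3380, 89, 17, 443, 0 and 4 in that order, and 17 to 470 with single arrays left out. Those are counts of genes, not of probes. The share over all probes is given only for the fit used here, 4.67%. Genes called in the wider clock lists, 0 here, came for genotype after irradiation to 2 with normexp, which called 3380 of all 17436 genes, and to 1 with the mean of all kept probes, which called 494. For irradiation averaged over genotypes they came to 1 with median scaling, which called 26 of all genes, or array weights, which called 87. Without single arrays that count was 0 to 1, as it was for irradiation in the labelled knockout, the 1 arising without knockout sham replicate 4. Pairs of clock genes with an adjusted p under 0.05, 7 here, were 4 with normexp, 3 with brightness removed and 1 to 7 with single arrays left out. The count fell by over 1.5 times without any 1 array except wild-type sham replicates 2 and 3 and knockout sham replicate 4. With the replicate number as a block, 0 clock genes, 3 clock probes and 3 pairs were called. That fit called 289 of 17436 genes for genotype after irradiation, and its count over all probes is not given here. 5 of 16 arrays correlated best with their own number. Over all genes the counts called ran from 0 to 3380 for genotype after irradiation and from 11 to 87 for irradiation averaged over genotypes. With 4 mice a group, intervals for single clock genes reached from -0.92 to 1.25.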
